A study of Drosophila melanogaster with 15 samples.

Results

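The 3 libraries titled control, out of 15 in the series, are described here gene by gene: the level of each gene, its rank, the family or tissue marker list it belongs to, and its spread over the 3 libraries. The libraries were chosen by title, which separates them from 3 libraries titled control RNAi, and no measured value entered the choice. The study concerns Dpp, a secreted BMP ligand, and its title names muscle as the source, feeding as the outcome and brain dopamine synthesis as the target. Total RNA of Drosophila melanogaster in the w1118 background was sequenced with strand-specific libraries after dissection of a tissue that the labels call skeletal muscle. The series also holds dpp overexpression, with 3 libraries, and a pair of dpp RNAi constructs with 3 libraries each. The control group has the genotype control, the control RNAi group has the genotype control RNAi, and the treatment label reads RNAi for every library, those titled control and dpp overexpression included. The driver line, the sex and the age of the flies are not given in the sources used here. Nor do the labels say that replicates came from separate animals, so each p-value measures only the spread between these samples, which may be technical.

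Light detection in the fly eye begins with an opsin, which activates a G protein and a phospholipase C and ends with the opening of TRP-family cation channels, while arrestins switch the activated opsin off. Striated muscle is defined by another set of genes, those of the sarcomere, whose myosin, actin, troponin and giant elastic proteins exist in isoforms that differ between flight muscle and other body muscles. Transcripts of this kind are abundant in the cells that use them and scarce elsewhere, so the levels of such markers describe which tissues contributed RNA to a bulk library. In bulk RNA, fewer cells of a type and less RNA per cell cannot be told apart.

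Counts assigned to genes, in units of 1e+06, were 53.3, 52.6 and 36.8 in the control libraries and 11.2 to 56.3 over the series. The share of reads without an assigned gene was 14.5 to 14.7% in control, 18.4 to 19.5% in control RNAi and 14.8 to 20.9% in dpp overexpression. dpp overexpression replicate 3, with the highest of these shares, stood apart from its replicates, with a chi-square per gene of 60.6 and 52.1 to replicates 1 and 2 against 19.4 between those. The submitters' library codes contain a number block that control shares with dpp overexpression but not with control RNAi, so that block and group cannot be told apart between control and control RNAi. The level of dpp, the targeted gene, was 36.4, 34.6 and 33.1 counts per 1e+06 gene counts (CPM) in control, 28.8, 29.1 and 33.9 CPM in control RNAi and 74.5, 80.9 and 52.8 CPM with dpp overexpression. No library of the control group overlapped with dpp overexpression for this gene, and control library 3 lay below control RNAi library 3.

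In each control library 12757 to 13032 of 15682 gene symbols had at least 1 count, and 9427 symbols reached 1 CPM or more in all 3 libraries. A further 1910 symbols had 0 counts in all 3 control libraries, and 1115 of these were at 0 in all 15 libraries of the series. A count of 0 allows a level of up to 0.0563 to 0.0815 CPM depending on the library (3 counts, counting error only). Of the 9427 detected genes, 9247 are annotated as protein-coding and held 98.3% of gene counts, while 102 non-coding RNA genes held 1.10%.

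The counts were concentrated in a small number of genes. Only 87 genes had a mean of 1000 CPM or more, and together they held 22.5% of gene counts. The 2160 genes from 100 to under 1000 CPM held 56.2%, and the 5130 genes from 10 to under 100 CPM held 20.2%. The 10 most abundant genes held 9.85 ± 0.339% of gene counts (SD, n = 3, as for every level and share that follows), and the 100 most abundant held 23.8 ± 0.284%. The decline from the first gene to the rarest is drawn in the plot of level against rank.

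**Figure D1:**
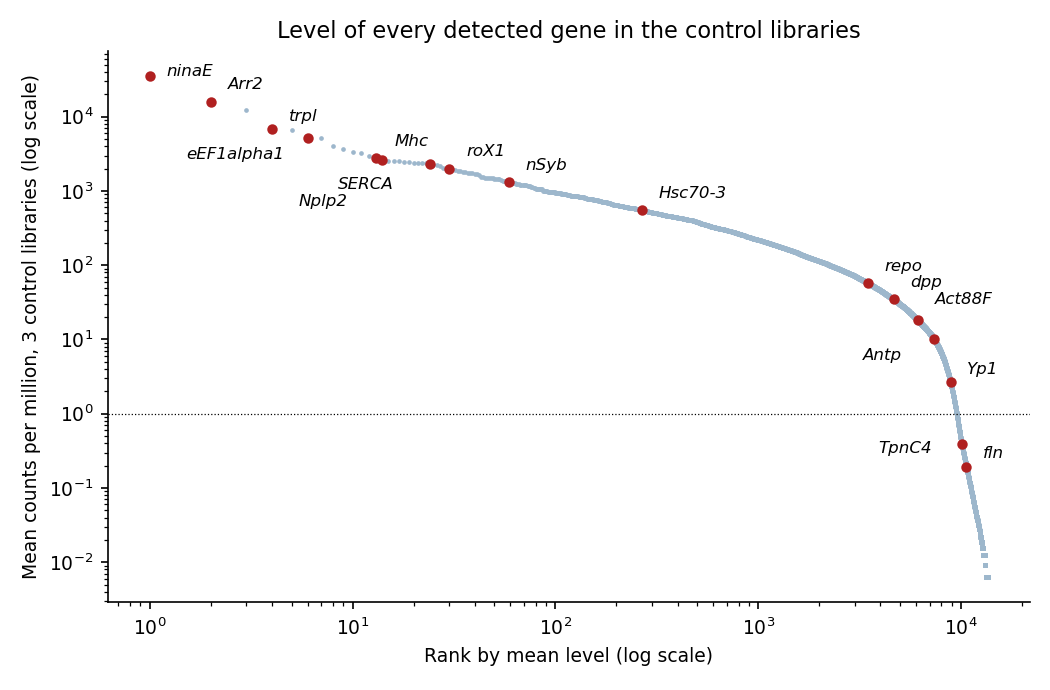
Mean level over the 3 control libraries (CPM, log scale) against rank (log scale) for every gene with a count; the dotted line marks 1 CPM and red points are named genes. ninaE stands at rank 1, roX1 at rank 30 and dpp at rank 4652, while the flight muscle genes TpnC4 and fln lie under the dotted line.

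The most abundant transcript was that of ninaE, the opsin of the outer photoreceptors of the compound eye, at 34192, 35168 and 37212 CPM, which is 3.55 ± 0.154% of gene counts. Next came Arr2, an arrestin of the same cells, at 15174, 15525 and 17041 CPM. Its partner Arr1 followed at 11829, 12380 and 12958 CPM. These photoreceptor transcripts were each highest in control library 3 and lowest in library 1. The light-gated channel gene trpl, at rank 4, had 6526, 6796 and 6948 CPM. The annotated non-coding gene CR42862, at rank 5, had 6468, 6359 and 6742 CPM. Together, then, the first 5 places hold 4 genes of the visual cascade and 1 gene that codes for no protein.

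The following ranks mixed general and tissue-restricted functions. The translation factor gene eEF1alpha1 (Ef1alpha48D in the files) had 5180, 5281 and 5157 CPM. The level of apolpp (Rfabg in the files), which encodes the apolipoproteins of the haemolymph lipid carrier lipophorin, was 5648, 5128 and 4660 CPM. Library 1 was the highest and library 3 the lowest for apolpp, the reverse of the photoreceptor genes. The photoreceptor myosin gene ninaC had 3799, 3854 and 4308 CPM, and the translation factor eEF2 (Ef2b in the files) had 3641, 3677 and 3645 CPM. Rank 10 went to trp, the channel that gave the TRP family its name, at 3170, 3354 and 3534 CPM.

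Ranks 11 to 30 contained transcripts of several tissues. Neuronal or secretory members were Ank2, a neuronal ankyrin, cpx, the complexin of the synaptic vesicle release machinery, and IA-2, a dense-core vesicle protein, with means of 2424, 2231 and 2377 CPM. Muscle members were Mhc, the muscle myosin heavy chain, at 2736, 2949 and 2594 CPM, and SERCA (Ca-P60A in the files), the calcium pump of the sarcoplasmic reticulum, at 2407, 2347 and 2072 CPM. In both muscle genes library 3 was the lowest of the 3. The secreted iron carrier Tsf1 had 2559, 2602 and 2358 CPM, and FASN1 (CG3523 in the files), a fatty acid synthase, had 2261, 2060 and 2135 CPM. Also among these ranks were CG8343, CG10077 and CG8329, known in the files by number only. The last of the 30 was roX1, a non-coding RNA of the male dosage compensation complex, at 1992, 1938 and 2031 CPM. 14-3-3zeta, just outside at rank 31 and chosen after its values were seen, had a mean of 1885 CPM.

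Long transcripts collect more reads, so levels were also expressed per kilobase of the longest annotated transcript. On this scale ninaE kept the first place at a mean level of 22370 CPM per kilobase, followed by Arr2 at 10286 and Arr1 at 5324. The next places went to short transcripts, namely Nplp2, a neuropeptide-like precursor, at 4280 CPM per kilobase, CG8343 at 4044, EbpIII (PebIII in the files), named for the ejaculatory bulb, at 2890, and CG8329 at 2607. Large genes moved down, such as apolpp to 453 and Ank2 to 57.5 CPM per kilobase. Of the 30 genes with most counts, 12 were also among the 30 highest per kilobase, so the order below the first 3 genes depends on this choice.

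All 7 opsin genes were detected in all 3 control libraries. After ninaE the most abundant was Rh4, a UV opsin of a subset of inner photoreceptors, at 1933, 1961 and 2109 CPM. Rh6, expressed in another subset of inner photoreceptors, had 1142, 1200 and 1261 CPM. Rh3, the other UV opsin of inner photoreceptors, had 816, 834 and 892 CPM. Library 3 was again the highest for each of these genes. Rh5, the alternative to Rh6 in its cell type, had 229, 230 and 236 CPM. Rh2, the opsin of the simple eyes on top of the head (ocelli), had 232, 217 and 224 CPM. Rh7, which is expressed in the brain, had 55.4, 51.9 and 50.7 CPM, and here library 3 was the lowest.

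Per kilobase, ninaE made up 87.2 ± 0.0457% of the summed level of the opsin genes, Rh4 5.78%, Rh6 3.33%, Rh3 2.37%, Rh2 0.643%, Rh5 0.575% and Rh7 0.0513%. Rh4 and Rh3, which mark alternative fates of the same inner photoreceptor, stood in a ratio of 2.44 ± 0.00932 per kilobase. Rh6 and Rh5, which mark alternative fates of the other inner photoreceptor, stood in a ratio of 5.79 ± 0.194 per kilobase. Closest in this order were Rh2 and Rh5, with mean levels of 164 and 147 CPM per kilobase, and for every pair of neighbours the 3 libraries did not overlap per kilobase. In CPM, without the length correction, Rh2 and Rh5 did overlap. Within the opsins, composition varied little between libraries even where the absolute CPM did.

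The transduction cascade behind the opsins was present throughout. All 23 listed phototransduction genes reached 1 CPM in all 3 libraries, 20 of them had a mean of 100 CPM or more, and together they held 4.93, 5.07 and 5.43% of gene counts. The choice of norpA, Galphaq, inaC and inaD as examples was made after their values were seen. norpA, the phospholipase C of the cascade, had 1419, 1373 and 1350 CPM, and the G protein subunit gene Galphaq (Galpha49B in the files) had 1201, 1181 and 1269 CPM. The eye-specific protein kinase C gene inaC had 874, 873 and 995 CPM, and inaD, the scaffold that holds cascade proteins together, had 712, 721 and 877 CPM. In inaC and inaD libraries 1 and 2 lay together and library 3 above them, whereas norpA was lowest in library 3. Per kilobase, Arr2 exceeded Arr1 1.93 ± 0.0460 times, and trpl exceeded trp 2.15 ± 0.0501 times.

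Structural genes of the eye were also detected. Of 15 genes for photoreceptor structure and retinoid supply, all reached 1 CPM in all 3 libraries, and chp, which encodes the photoreceptor surface protein chaoptin, alone gave 54.6% of the list's counts with 2447, 2486 and 2571 CPM. The extracellular protein gene eys, needed for the space between rhabdomeres, had 375, 396 and 392 CPM. The lens and pigment list was led by retinin, a lens protein gene, with 560, 632 and 655 CPM. The whole list held 0.202, 0.211 and 0.213% of gene counts. The white gene w, which the w1118 background carries as a mutant allele and which was chosen after its values were seen, was at 12.3, 13.2 and 13.7 CPM. Taken as a union of 61 genes, the 4 eye lists held 9.44, 9.70 and 10.3% of gene counts and supplied 11 of the 100 most abundant genes.

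The sarcomere list was checked because the labels name skeletal muscle. Its 34 genes held 1.90, 1.89 and 1.69% of gene counts, and 26 of them had a mean of 100 CPM or more. The regulatory myosin light chain gene Mlc2 (chosen after its values were seen, as were the actin and troponin C genes below) had 914, 943 and 856 CPM. Per kilobase it stood at 1.05 ± 0.0235 times Mhc. The thick filament and elastic protein genes bt, at 1625, 1391 and 1147 CPM, and sls, at 1314, 1196 and 1029 CPM, were likewise chosen after their values were seen. Library 3 was the lowest for both.

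Isoforms known from indirect flight muscle were scarce in these libraries. Act88F, the flight muscle actin, had 18.0 ± 1.80 CPM. Per kilobase, Act57B, a larval and adult body-wall actin, stood at 32.1 ± 3.83 times Act88F, and Act79B, an actin of tubular leg and jump muscle, at 24.3 ± 1.54 times. fln, the flight muscle protein flightin, had 0.206, 0.209 and 0.163 CPM, and the flight muscle troponin C gene TpnC4 had 0.450, 0.380 and 0.326 CPM. Other troponin C genes were higher, with TpnC25D at 190, 202 and 211 CPM and TpnC41C at 100, 95.1 and 83.1 CPM. The 4 eye lists thus held 9.82 ± 0.448% of gene counts against 1.83 ± 0.120% for the sarcomere list, and ninaE stood at 59.7 ± 5.85 times Mhc per kilobase. The markers of the labelled tissue were therefore present, with a summed share below that of the eye lists. Of those, the opsin and phototransduction lists, at 4.01% and 5.14%, lay above the sarcomere list. The photoreceptor structure list and the lens and pigment list, at 0.458% and 0.209%, lay below it. The libraries are called the control libraries here, by their title.

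**Figure D2:**
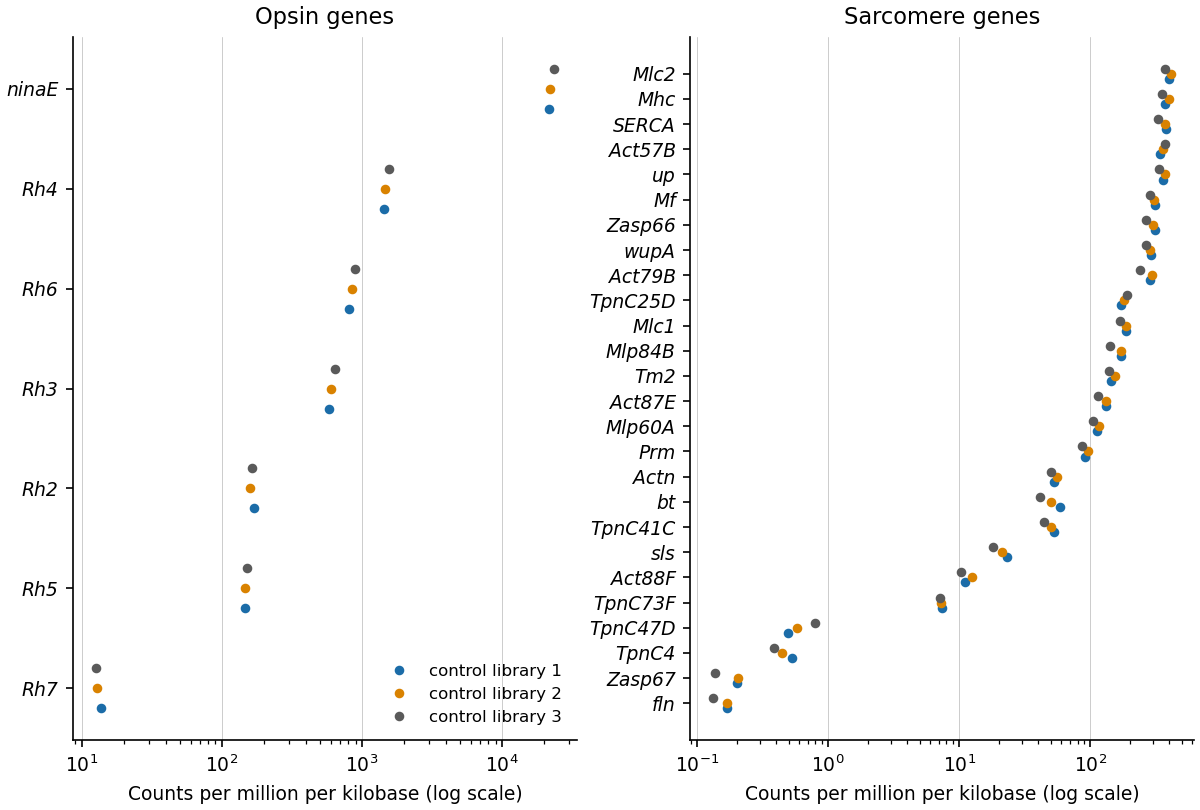
Level of the opsin genes (left) and of selected sarcomere genes (right) in each control library, in CPM per kilobase of the longest annotated transcript on log scales; each point is 1 library. ninaE lies above the other opsins in every library, while TpnC47D, TpnC4, Zasp67 and fln lie under 1 CPM per kilobase.

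Hox genes, which set segment identity along the body axis, were read as markers of position. Scr, which acts in the labial and first thoracic segments, had 40.3, 38.4 and 37.7 CPM, and Dfd, which acts in the maxillary and mandibular segments of the head, had 35.3, 37.3 and 37.4 CPM. The thoracic gene Antp had 10.4, 10.1 and 9.89 CPM, and pb, of the mouthparts, had 10.6, 10.6 and 11.4 CPM. Ubx, of the posterior thorax and abdomen, had 2.81, 2.64 and 2.42 CPM. Among the abdominal genes Abd-B was at 0.0938, 0.0570 and 0.0815 CPM, and abd-A had 0 counts in all 3 control libraries. Scr and Dfd were thus the highest of the family, on a per-kilobase scale as well. There Dfd stood at 13.4, Scr at 9.37 and Ubx at 0.613 CPM per kilobase. The remaining member, lab, also a gene of the head, reached 1 CPM in all 3 libraries. Its mean was under 10 CPM and below that of the thoracic gene Antp, so level did not follow position throughout the family.

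Of the 11 listed eye and head selector genes, which direct the formation of these structures, 10 reached 1 CPM in all 3 libraries. toy, a Pax6 gene at the start of eye development, had 138, 133 and 139 CPM, and its paralog ey had 61.0, 61.5 and 68.9 CPM. Of the sex list, Sxl, the master switch of sex determination, had 213, 203 and 202 CPM. msl-2, the male-specific protein component of dosage compensation, had 78.0, 80.8 and 80.6 CPM, and the second dosage compensation RNA, roX2, had 78.6, 74.0 and 80.4 CPM. The yolk protein genes, transcribed in female fat body and ovary, were low, with 2.81, 2.53 and 2.58 CPM for Yp1, 1.50, 1.60 and 1.47 CPM for Yp2, and 20.1, 23.1 and 21.4 CPM for Yp3. The labels give no sex for the flies.

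Transcripts of neurons were detected without exception in the list used. All 30 listed neuronal genes reached 1 CPM in all 3 libraries, and together they held 1.02, 0.983 and 1.02% of gene counts. nSyb, the synaptic vesicle protein synaptobrevin, had 1268, 1283 and 1374 CPM. unc-13, a vesicle priming factor, had 1468, 1233 and 1186 CPM, and Syt1, the calcium sensor of vesicle release, had 1006, 955 and 966 CPM. The libraries overlapped closely for nSyb and Syt1, whereas unc-13 was higher in library 1 than in the other libraries. Gad1, which makes GABA, stood at 5.50 ± 0.192 times ChAT, which makes acetylcholine, per kilobase; both were chosen after their values were seen.

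Neuropeptide genes held 0.478% of gene counts, of which Nplp2 alone gave 54.6% with 2680, 2656 and 2496 CPM. CCHa2, a peptide hormone made in fat body and gut, had 376, 349 and 336 CPM, and Nplp3 had 272, 274 and 308 CPM. The clock neuron peptide Pdf, chosen after its values were seen, had 79.2, 80.7 and 91.0 CPM, and Akh, the adipokinetic hormone of the corpora cardiaca, chosen in the same way, had 0.0938, 0.228 and 0.272 CPM. Pdf was thus clearly detected, while Akh lay near the level that a count of 0 allows. Glial genes held 0.452 ± 0.00689% of gene counts, and all 18 listed genes had a mean of at least 10 CPM. Gs2, the glial glutamine synthetase, had 1165, 1152 and 1127 CPM, and the amino acid transporter gene Eaat2 had 647, 635 and 685 CPM. Neuronal, neuropeptide and glial lists together held 1.94 ± 0.0267% of gene counts, close in size to the sarcomere list.

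The fat body list held 1.32, 1.24 and 1.17% of gene counts, and apolpp gave 41.5% of it. Haemocyte genes held 0.0829%, led by crq, a scavenger receptor of macrophages, with 246, 238 and 235 CPM. The oenocyte and cuticular hydrocarbon list held 0.191%, and Desat1, a fatty acid desaturase, gave 89.6% of that with 1788, 1700 and 1641 CPM. Library 1 was the highest and library 3 the lowest for the fat body list, as for Desat1.

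Gut and reproductive markers were low. Of 18 digestive tract genes, 5 reached 1 CPM in all 3 libraries, and the list held 0.0231 ± 0.00177% of gene counts. Its highest members were the near-identical amylase genes Amy-d, at 107, 113 and 95.7 CPM, and Amy-p, at 76.9, 85.8 and 71.6 CPM, between which reads could have been divided. None of the 27 Jonah and trypsin-like protease genes, which encode gut proteases, reached 1 CPM in all 3 libraries. The accessory gland and testis list held 0.000262% of gene counts and the ovary list 0.000272%. Of the 14 male genes only betaTub85D, the testis tubulin, passed 1 CPM in all 3 libraries, with 1.33, 1.25 and 1.82 CPM, and of the 12 ovary genes none did. The plot of list shares sets these lists beside those of the eye, muscle and nervous system.

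**Figure D3:**
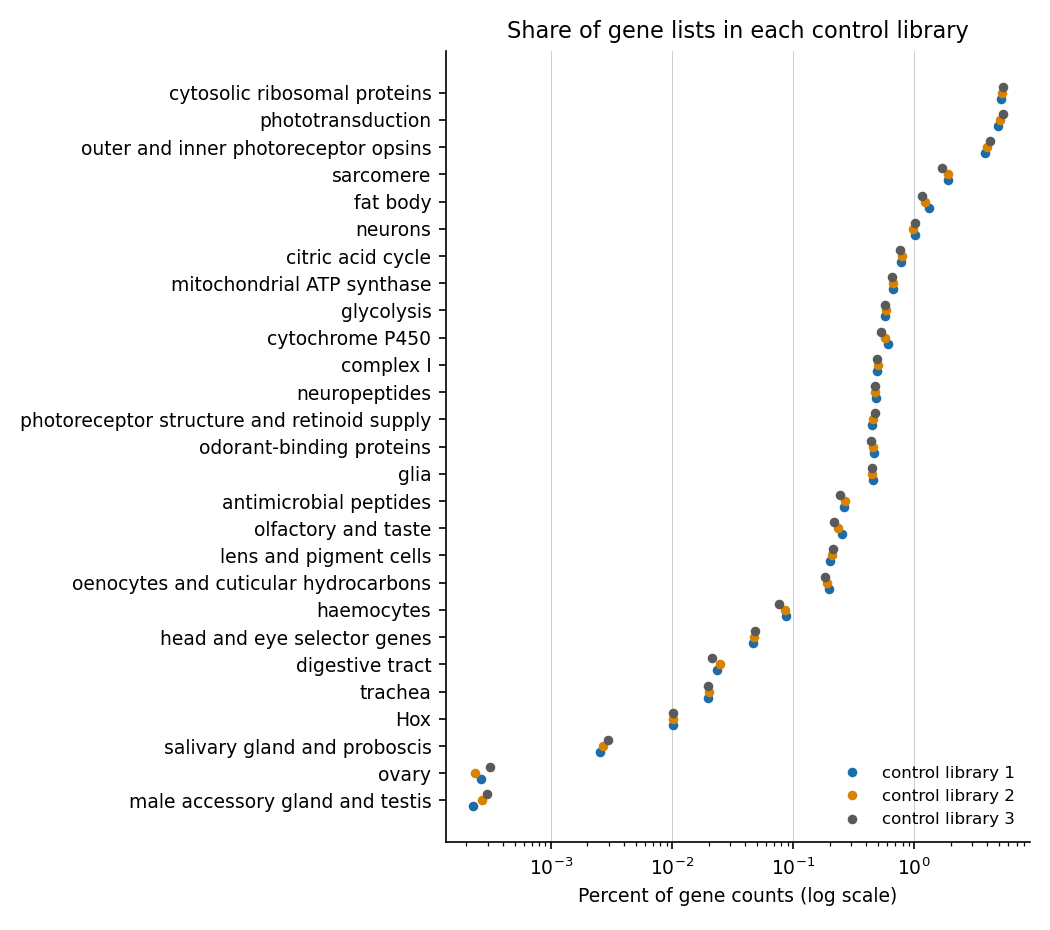
Percent of gene counts (log scale) held by each gene list or family in each control library; each point is 1 library. The phototransduction and opsin lists lie at 3.86 to 5.43%, the sarcomere list at 1.69 to 1.90% and the ovary and male reproductive lists near 0.0003%.

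Among general functions, cytosolic ribosomal protein genes held 5.23, 5.35 and 5.41% of gene counts. Of 93 symbols in this family 86 reached 1 CPM in all 3 libraries, and the highest was RpL5 at 1799, 1709 and 1769 CPM. Energy metabolism was represented by 17 citric acid cycle genes at 0.778% of gene counts, 12 genes of the mitochondrial ATP synthase at 0.663%, 13 glycolysis genes in the files at 0.580% and 40 symbols of respiratory complex I at 0.493%. The aconitase gene mAcon1 (Acon in the files) had 1205, 1254 and 1157 CPM, ATPsynbeta, the catalytic subunit of the ATP synthase, had 1882, 1820 and 1762 CPM, and Eno, the enolase of glycolysis, had 1064, 1073 and 1056 CPM. For each of these genes library 3 was the lowest, though by little for Eno. The vacuolar proton pump held 0.603% of gene counts, led by Vha16-1 at 1078, 1053 and 1083 CPM, and the proteasome 0.224%, led by Rpn2 at 129, 130 and 124 CPM.

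Of 16 listed heat shock and chaperone genes 15 reached 1 CPM in all 3 libraries, and the list held 0.515 ± 0.00503% of gene counts. Its largest member, with 47.2% of the list's counts, was Hsc70-4, the main constitutive Hsp70-family chaperone, which had 2426, 2436 and 2421 CPM and, per kilobase, 133 ± 10.5 times the level of the inducible gene Hsp70Aa, which has near-identical copies and was chosen after its values were seen. Hsp83, the fly Hsp90, had 1136, 1176 and 1197 CPM. Between the genes for the translation factor eEF1A, eEF1alpha1 stood at 4.62 ± 0.139 times eEF1alpha2 per kilobase. Between the cytoplasmic actin genes, Act5C stood at 20.8 ± 0.530 times Act42A. eEF1alpha2, Act5C and Act42A were chosen after their values were seen.

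Chemosensory gene families differed widely in how many members were detected. Of the 52 odorant-binding protein genes 29 reached 1 CPM in all 3 libraries, led by Obp19d (Pbprp2 in the files) at 1114, 1086 and 1040 CPM. Of 61 odorant receptors 8 did so, of 63 gustatory receptors 7, of 63 ionotropic receptors 11, and of 20 CheA and CheB genes 18. Orco, the shared co-receptor of the odorant receptors, had 19.3, 12.8 and 11.3 CPM, and the highest gustatory receptor, Gr28b, had 2.25, 2.55 and 2.45 CPM. CheA75a, of a family first found in taste bristles of the leg, had 84.4, 78.3 and 62.6 CPM. Orco and CheA75a were highest in library 1 and lowest in library 3.

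Detoxification genes were broadly present, as 72 of 85 cytochrome P450 symbols reached 1 CPM in all 3 libraries and the family held 0.572 ± 0.0351% of gene counts. Cyp313a1 led with 1050, 1001 and 881 CPM, and GstD1, a glutathione S-transferase, had 413, 417 and 380 CPM. Cuticle proteins were detected for 26 of 125 symbols, led by Cpr65Au at 389, 372 and 376 CPM. Histone symbols were detected for 4 of 115, among them the replacement histone genes His3.3B, at 573, 577 and 622 CPM, and His4r, at 475, 470 and 475 CPM. The replication-dependent histone genes are near-identical copies, and how their reads were counted is not given in the sources used here. All 37 symbols of mitochondrially encoded genes had 0 counts in all 15 libraries. Of the genes known only by CG number, 4506 of 7791 reached 1 CPM in all 3 libraries, and these numbered genes held 28.7 ± 0.197% of gene counts.

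The BMP pathway, to which Dpp belongs, was expressed at moderate levels with little spread. The 22 listed genes held 0.152 ± 0.000309% of gene counts, 20 of them had a mean of at least 10 CPM, and their median coefficient of variation (CV, the SD as a percent of the mean) was 2.90%. Among ligands, mav had 75.3, 73.6 and 75.9 CPM, gbb had 44.2, 47.3 and 44.4 CPM, and dpp, at the levels given above, had a mean of 8.20 CPM per kilobase and rank 4652 by CPM. The embryonic ligand scw had 0.225, 0.114 and 0.136 CPM. Among receptors, the type I receptor gene tkv had 96.7, 96.9 and 91.7 CPM, sax had 59.4, 59.7 and 61.4 CPM, and the type II receptor gene put had 90.5 ± 3.11 CPM. wit, the type II receptor of the neuromuscular junction, had 108, 109 and 116 CPM. Of these receptors sax was thus the lowest and wit the highest in each library.

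Downstream in the pathway, Mad, the transcription factor that the receptors phosphorylate, had 62.8, 65.2 and 61.9 CPM. Its partner Med had 54.7, 55.7 and 55.0 CPM. The feedback inhibitor Dad, a target of the pathway, had 77.8, 75.2 and 77.0 CPM, and brk, a repressor that the pathway silences, had 16.0, 15.2 and 15.4 CPM. Of the extracellular modulators, the protease gene tok had 222, 223 and 231 CPM, the antagonist gene sog had 95.9, 101 and 99.6 CPM, and tsg had 0 counts in all 3 libraries. For tsg a level of up to 0.0815 CPM is allowed in the shallowest library.

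Genes of dopamine and beta-alanine metabolism held 0.241 ± 0.00210% of gene counts, and 12 of 13 listed reached 1 CPM in all 3 libraries. ple, the tyrosine hydroxylase that begins dopamine synthesis and chosen after its values were seen, had 134, 127 and 126 CPM. Hn, phenylalanine hydroxylase, had 484, 471 and 423 CPM, Ddc, the decarboxylase that forms dopamine, had 387, 397 and 422 CPM, and Vmat, which loads amines into vesicles, had 467, 452 and 444 CPM. Library 3 was the lowest for Hn and the highest for Ddc, and the list as a whole varied less than these members.

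The 3 control libraries were close to each other. Across the 9443 to 9465 genes with at least 1 CPM in both libraries of a pair, 0 to 8 genes differed by more than 2-fold. For 7377 genes with a mean of at least 10 CPM the median CV was 3.23%, against 2.04% from counting error alone, and 218 of them had a CV over 10%. In the 87 genes at 1000 CPM or more the median CV was 3.33% against 0.374% from counting. No pair of libraries agreed within counting noise, since the chi-square per gene was 5.22 to 13.6, so they were treated as 3 separate samples.

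**Figure D4:**
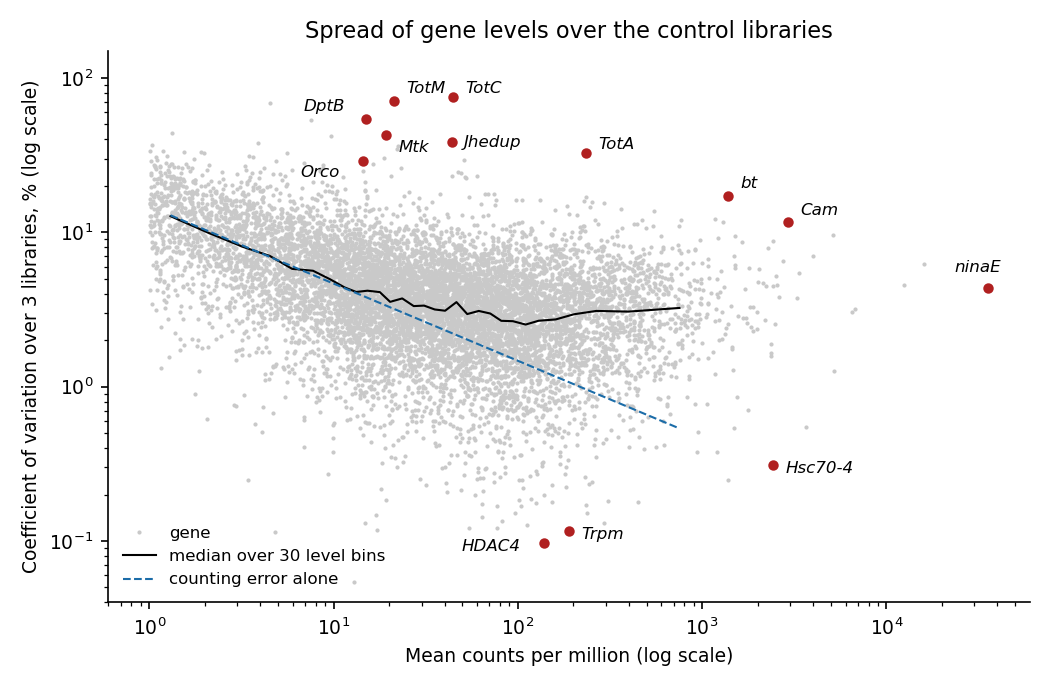
Coefficient of variation over the 3 control libraries (percent, log scale) against mean level (CPM, log scale) for every gene with a mean of at least 1 CPM; the black line is the median in 30 level bins and the dashed line the counting error. TotC, TotM and DptB lie highest among the named genes, and HDAC4 and Trpm lowest.

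The genes with the largest spread, among those with a mean of at least 10 CPM, included stress, immune and antennal genes. TotC and TotM, secreted proteins induced by stress, had 83.2, 26.6 and 23.7 CPM and 38.7, 13.7 and 11.5 CPM. Their relative TotA had 319, 206 and 175 CPM. Library 1 was the highest for each Tot gene. The antibacterial peptide genes DptB and Mtk went the other way, with 6.11, 21.9 and 16.9 CPM and with 10.4, 26.6 and 20.9 CPM, and AttC had 13.6, 29.5 and 24.2 CPM. Library 1 was the lowest for each of these immune genes. Jhedup, an esterase gene, had 62.7, 37.3 and 31.2 CPM, and the odorant-binding gene Obp83b (Os-E in the files) had 68.0, 47.0 and 39.0 CPM. At the other end, HDAC4, a histone deacetylase gene, had a CV of 0.0976% and Trpm, a TRP-family channel gene, 0.117%. Such values lie under the counting error and with 3 libraries do not distinguish these genes from their neighbours.

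Library 3, the shallowest, took different positions in different lists. It was the lowest library for 27 of 29 sarcomere genes with a mean of at least 10 CPM, for 18 of 18 olfactory and taste genes, for 8 of 8 CheA and CheB genes and for 42 of 50 cytochrome P450 genes. The olfactory and taste list shares members with the CheA and CheB family and with the odorant-binding family. For the latter library 3 was the lowest for 13 of 20 genes and the highest for 5. It was the highest for 22 of 24 neuropeptide genes and for 17 of 22 phototransduction genes. Over all 7377 genes at that level it was the lowest for 2968, the highest for 2822 and in the middle for 1587. The sarcomere list in library 3 stood at 89.1% of its mean share in libraries 1 and 2, the CheA and CheB family at 77.7% and the phototransduction list at 109%. These differences between replicates have no test.

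The control libraries were compared with control RNAi, the other control group of the series, by edgeR's quasi-likelihood test with Benjamini-Hochberg adjustment over 10668 genes, as for every adjusted p that follows. Of these genes 2589 (24.3%) were higher in control and 2234 (20.9%) lower at an adjusted p under 0.05, which is 45.2% in either direction (2171 higher and 2522 lower with RLE size factors), and 728 (6.82%) passed with at least a 2-fold difference. The median log2 fold change (control minus control RNAi) over all tested genes was 0.04. The groups did not overlap for 67.7% of tested genes, a share against which single examples should be read. Since the library-code block differs between the groups, group and block cannot be told apart in any value of this comparison.

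Sarcomere genes were mostly higher in control than in control RNAi: 28 of 34 tested were higher, 1 was lower and 5 did not pass, with a median log2 fold change of 1.07. Mhc, at the 3 control levels given above, had 1214, 1245 and 1301 CPM in control RNAi. Every control library lay above every control RNAi library, with a log2 fold change of 1.04 ± 0.14 (SE; adjusted p = 5.66e-05). SERCA had 963, 905 and 968 CPM in control RNAi (1.17 ± 0.18, adjusted p = 0.000252). The lower gene was Msp300, a giant protein that anchors nuclei, with 1632, 1842 and 1909 CPM in control RNAi (-0.37 ± 0.09, adjusted p = 0.00414). Mitochondrial energy genes were also higher in control, with 29 of 34 complex I genes and 9 of 12 ATP synthase genes called and none lower. ND-51 (CG9140 in the files), a complex I subunit, had 521, 546 and 528 CPM in control and 335, 323 and 304 CPM in control RNAi (0.63 ± 0.08, adjusted p = 2.37e-05). For the citric acid cycle, 10 of 16 tested genes passed as higher in control and 3 as lower.

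Neuronal and fat body lists lay in the other direction. Of 30 neuronal genes 21 were lower in control, 1 was higher and 8 did not pass, with a median log2 fold change of -0.37. Syt1 had 1503, 1494 and 1488 CPM in control RNAi, above all 3 control libraries (-0.71 ± 0.09, adjusted p = 2.43e-05). Of 24 fat body genes 16 were lower in control and 1 higher, and apolpp had 7590, 8681 and 8937 CPM in control RNAi (-0.80 ± 0.11, adjusted p = 2.14e-05). Of 46 tested odorant receptors 38 were lower, 2 were higher (1 with any single library left out) and the median log2 fold change was -2.03. Orco had 66.7, 63.2 and 88.7 CPM in control RNAi, above every control library (-2.42 ± 0.36, adjusted p = 0.000316). The CheA and CheB genes lay on the opposite side, with 20 of 20 higher in control and a median log2 fold change of 4.96. CheA75a had 1.27, 1.39 and 0 CPM in control RNAi, under every control library (6.32 ± 0.63, adjusted p = 2.08e-05). Of 27 Jonah and trypsin-like protease genes 7 had enough counts to be tested, and 7 of these were lower in control (median log2 fold change -4.85). A gene that is high in either group passes the filter on low counts, so the odorant receptor and protease counts describe tested members only. None of the proteases reached 1 CPM in all 3 control libraries, so their direction follows in part from the filter. Without the filter, 8 of 25 proteases were lower in control and 0 higher, with a median log2 fold change of -1.88. For odorant receptors 39 of 61 were then lower and 1 higher, with a median of -1.85. Sarcomere, neuronal, fat body and chemosensory markers thus moved together with the share of unassigned reads and the library-code block between these groups, and their part in each result was not tested.

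Among eye genes the changes were smaller and uneven. ninaE had 36520, 32690 and 36110 CPM in control RNAi, a range that overlapped with control (log2 fold change -0.08 ± 0.08, adjusted p = 0.456). Among all tested genes 45.2% passed in this comparison, 24.3% as higher and 20.9% as lower in control. Of 7 opsins 3 were lower in control and the others did not pass. Rh5 had 554, 572 and 541 CPM in control RNAi, above every control library (-1.36 ± 0.07, adjusted p = 1.15e-09). Rh3 had 1165, 1184 and 1155 CPM (-0.56 ± 0.07, adjusted p = 1.88e-05), and Rh2 had 286, 293 and 271 CPM (-0.43 ± 0.07, adjusted p = 8.22e-05). In these 3 genes no control library reached a control RNAi library, beside 67.7% of all tested genes whose groups did not overlap. Of 23 phototransduction genes 2 were higher, 7 lower and 14 did not pass, with a median log2 fold change of -0.04, which is near that of all genes.

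Of 7 tested Hox genes 3 were higher in control (Ubx, Antp and Scr), pb was lower and 3 did not pass. Their median log2 fold change was 0.19, and over all tested genes 24.3% were higher and 20.9% lower. Ubx had 0.242, 0.252 and 0.240 CPM in control RNAi, under the control range (log2 fold change 3.31 ± 0.54, adjusted p = 0.00029). Antp had 3.03, 2.42 and 3.15 CPM there (1.72 ± 0.26, adjusted p = 0.000207). pb, at 12.4, 12.1 and 13.5 CPM in control RNAi, went the other way by a smaller amount (-0.32 ± 0.08, adjusted p = 0.00347). Among single genes outside this family, CG11313 had a large difference, with 0.131, 0.190 and 0.245 CPM in control and 93.4, 95.7 and 94.4 CPM in control RNAi (-9.08 ± 0.12, adjusted p = 2.79e-17). Desat1 had 4191, 4781 and 4461 CPM in control RNAi (-1.49 ± 0.07, adjusted p = 1.26e-09), and CCHa2 had 144, 155 and 130 CPM (1.21 ± 0.06, adjusted p = 2.2e-09). The first of these genes was lower and the second higher in all 3 control libraries than in any control RNAi library.

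**Figure D5:**
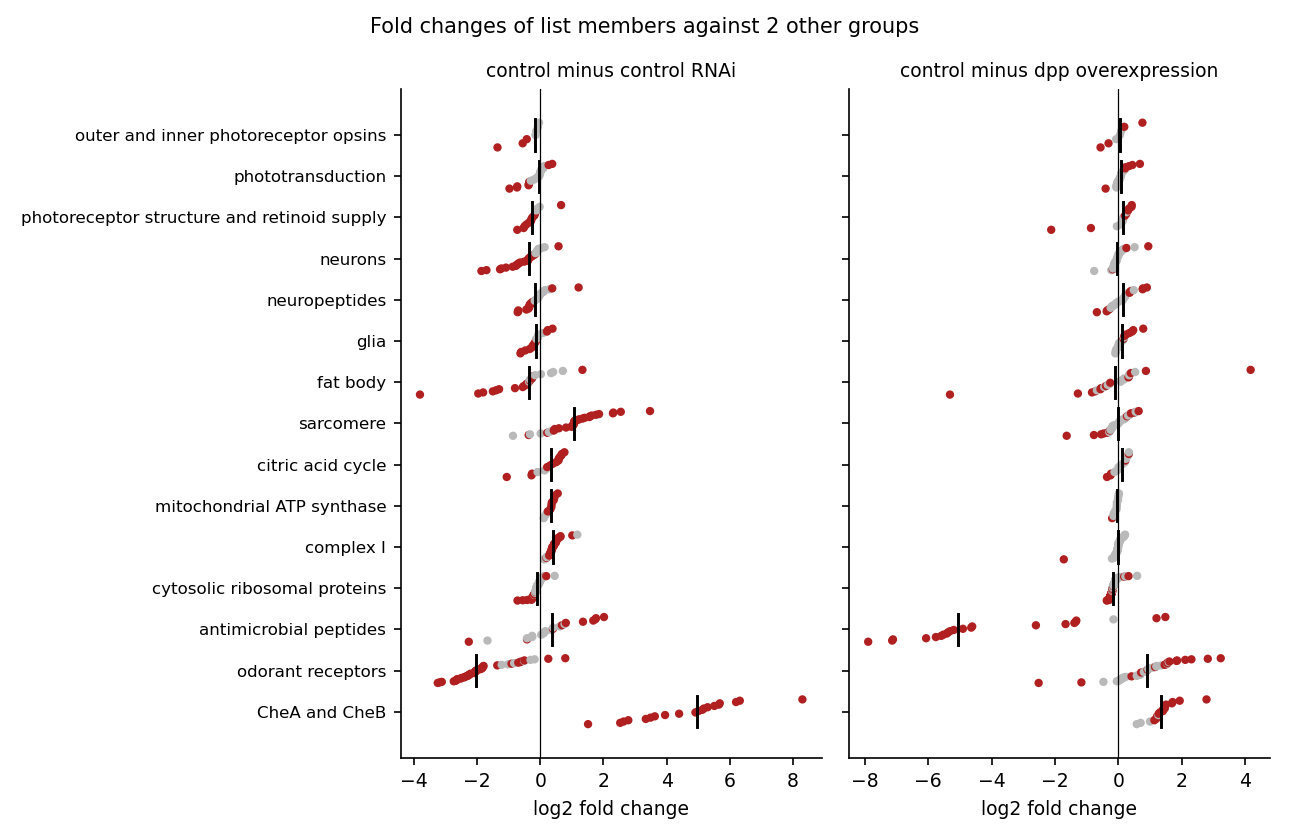
Log2 fold change of each tested member of selected lists, control minus control RNAi (left) and control minus dpp overexpression (right); red points passed an adjusted p under 0.05, grey points did not, and the black bar is the list median. The sarcomere median is 1.07 on the left and 0.00 on the right, and the antimicrobial peptide median is -5.05 on the right.

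Against dpp overexpression, which shares the library-code block, 1730 of 10668 genes (16.2%) were higher in control and 1426 (13.4%) lower, or 29.6% in either direction, 664 (6.22%) passed with at least a 2-fold difference, and the median log2 fold change over all tested genes was 0.01. The groups did not overlap for 45.2% of tested genes. Both comparisons use the same control libraries, so their values are given side by side only. Replicates 1 to 3 of control and dpp overexpression deviated together, and with the replicate number as a block the counts were 1791 higher and 1448 lower. Without dpp overexpression replicate 3 they were 1853 and 1610.

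Among all tested genes 29.6% passed in this comparison. Sarcomere genes were called at about that share and neuronal genes at a smaller one. Of 34 sarcomere genes 4 were higher in control, 6 lower and 24 did not pass, with a median log2 fold change of 0.00, and of 30 neuronal genes 2 were higher, 1 lower and 27 did not pass. These small counts moved with single libraries. Without dpp overexpression replicate 3, the library that stood apart, 9 neuronal genes were higher and 0 lower, and without replicate 2 of that group 1 was higher and 4 lower. Sarcomere genes numbered 1 higher without control replicate 1, control replicate 2 or dpp overexpression replicate 1 and 2 higher without dpp overexpression replicate 3. Lower sarcomere genes numbered 3 without control replicate 1 or 3 or without dpp overexpression replicate 2 or 3. Among antimicrobial peptide genes the count was larger, with 19 of 22 tested lower in control, 2 higher and a median log2 fold change of -5.05. Of 25 listed, 17 reached 1 CPM in all 3 control libraries, and members high only with dpp overexpression also pass the filter. Over all settings, no filter included, 19 were lower and the median was -5.36 to -4.64. Drs, an antifungal peptide gene, had 4.95, 6.80 and 5.71 CPM in control and 837, 700 and 919 CPM with dpp overexpression (-7.14 ± 0.15, adjusted p = 4.2e-13). The relatives Drsl4 and Drsl5 (dro4 and dro5 in the files) were the 2 higher genes. Drsl4 had 542, 535 and 473 CPM in control against 245, 238 and 192 CPM (1.20 ± 0.10, adjusted p = 1.42e-07). Neither gene's groups overlapped.

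Chemosensory and eye lists differed in how many members passed, beside 29.6% of all tested genes. The chemosensory lists share members, so their counts are not separate. Of 29 olfactory and taste genes 21 were higher in control and none lower, with 12 higher without dpp overexpression replicate 1. Of 35 odorant-binding genes 22 were higher and 4 lower. Of 20 CheA and CheB genes 16 were higher and none lower, with 10 higher without dpp overexpression replicate 1. Obp19d had 574, 651 and 501 CPM with dpp overexpression, under every control library (0.91 ± 0.11, adjusted p = 1.4e-05). Of 7 opsins 2 were higher and 2 lower, with 1 higher without control replicate 1 or dpp overexpression replicate 2 and 3 higher without dpp overexpression replicate 3. Rh6 had 668, 705 and 759 CPM with dpp overexpression (0.76 ± 0.06, adjusted p = 2.24e-07), while Rh5 had 325, 342 and 361 CPM (-0.56 ± 0.07, adjusted p = 7.16e-06). Of 23 phototransduction genes 5 were higher, 1 was lower and 17 did not pass, near the share over all genes. Over all settings 1 to 11 were higher. The largest positive fold change of that list was that of trpl, with 4121, 4216 and 4341 CPM (0.68 ± 0.06, adjusted p = 4.65e-07). ninaE at 32379, 32748 and 38001 CPM overlapped with control (0.05 ± 0.08, adjusted p = 0.722). Of 86 ribosomal protein genes 41 were lower in control, 2 were higher and 43 did not pass. Without control replicate 1, 26 were lower and 1 higher, and the higher count was 1 or 4 without each of the other libraries.

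The larval serum protein gene Lsp1alpha had 8.29, 7.85 and 6.28 CPM in control, 20.9, 26.1 and 12.9 CPM in control RNAi and 0.249, 0.484 and 0.627 CPM with dpp overexpression. Its log2 fold changes were -1.50 ± 0.22 (adjusted p = 0.000138) against control RNAi and 4.17 ± 0.34 (adjusted p = 1.26e-06) against dpp overexpression. No 2 of the 3 groups overlapped for this gene. Its relatives, chosen after their values were seen, did not share this pattern. Lsp1gamma was lower in control than with dpp overexpression, at 0.206, 0.171 and 0.136 CPM against 6.27, 6.57 and 8.69 CPM (-5.31 ± 0.28, adjusted p = 1.18e-09). Lsp1beta (-0.34, adjusted p = 0.0575) and Lsp2 (0.17, adjusted p = 0.726) did not pass against dpp overexpression, and all 4 genes were lower than in control RNAi. Cpr65Au, the most abundant cuticle gene, had 333, 285 and 317 CPM in control RNAi and 130, 120 and 121 CPM with dpp overexpression, a log2 fold change of 1.62 ± 0.07 (adjusted p = 5.03e-11) against the latter.

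Few genes separated the control libraries from all 12 others by detection. Of the 9427 genes at 1 CPM or more in all 3 control libraries, 9041 were also at that level in all 15 libraries, and 8 were under 1 CPM in each of the 12 others. These 8 were CG14238, CG14107, CG33702, CG3868, CG5435, fs(1)N, CG6425 and CG18577, and those not among the largest changes were chosen after their values were seen. CG33702 had 1.56, 1.63 and 1.30 CPM in control, 0 counts in all 3 control RNAi libraries and 0.195, 0.202 and 0.117 CPM with dpp overexpression. CG14238 had 1.89, 1.86 and 2.20 CPM in control and 0.0908, 0.157 and 0 CPM in control RNAi. All 8 genes were near the threshold of 1 CPM in control, so that detection in these libraries alone rests on low levels. In the other direction, 3 symbols at 0 in control reached 1 CPM in all libraries of another group: CG17105 and the near-identical pair Lcp65Ab1 and Lcp65Ab2, chosen after their values were seen.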

How the data were processed

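Total RNA was sequenced in 15 libraries, and the authors deposited whole-number counts per gene symbol with 5 summary lines per library. The submitters' processing notes name BWA, STAR and HTSeq and the dm3 build, while tool roles and versions, strand setting and gene annotation are not given in the sources used here. Reads of overlapping genes and of near-identical paralogs could thus have been divided in unknown ways. Summary lines (14.5 to 14.7% of entries in control) were removed. Levels are counts per 1e+06 gene counts, without further scaling, and intervals and floors cover counting error only. Of 15682 symbols, 11943 matched an Ensembl BDGP6 symbol, 3295 a synonym and 121 by elimination, 163 were ambiguous and 160 had no match; lengths were found for 15359, which hold 99.1% of control counts. That annotation gave names, biotypes and lengths only.

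Groups were compared in R 4.3.3 with edgeR 4.0.16 (filterByExpr with minimum count 10, TMM scaling, robust quasi-likelihood fit of all 15 libraries by group), with calls at an adjusted p (Benjamini-Hochberg, 10668 genes) under 0.05. With 3 libraries a group, single genes were tested only in this model. DESeq2 1.42.0, RLE size factors, no filter, a fit of only the groups compared, a replicate block and leaving out each library were the alternatives. Data were simulated from the mean levels and library sizes, with the same fixed spread for every gene and no library that stood apart. They gave back 95% and 94% of genes changed 2-fold in the comparisons with control RNAi and dpp overexpression. Among 10668 genes, 12 and 14 unchanged ones were called. These rates check the fit and do not describe error rates under the spread of the real libraries. Same-numbered deviations of control and dpp overexpression correlated at 0.199 to 0.413, and those of control and control RNAi at -0.278 to 0.119. The labels do not say what the replicate number marks. The main fit, and so every fold change and adjusted p printed, leaves it out, and the replicate block was an alternative only.

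Named genes were the 30 most abundant; the 3 highest of each list or family; every opsin, Hox, sex and BMP gene; the 10 with the largest CV (from 10 CPM) and the 10 with the smallest (from 100 CPM); the 10 largest changes on either side of each comparison; and dpp. Members, lists and rules were chosen with earlier results of these data known. Python 3.11.15 with pandas 2.3.3, numpy 2.4.6 and matplotlib 3.10.9 read the files and drew the plots. Current symbols are used, and the files' own symbol is given where it is a different name.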

Additional observations from a re-analysis of the deposited data

How the results depend on the processing

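Call counts over all genes stayed within 1.5 times under the alternatives run. Single fold changes were rechecked for the 10 largest changes on either side of each comparison. The tested sarcomere, opsin, CheA and CheB, Hox and BMP genes were rechecked too. None of these fold changes that was called turned its sign, and other printed fold changes were not rechecked singly. Of 56 list shares, 56 moved by less than the spread between libraries with TMM-scaled CPM. Without ninaE and the mitochondrially encoded genes in the total, which is then smaller, 34 list shares and 91 gene levels moved by more than that spread, while 22 and 171 did not. On the same reduced total, the 10 most abundant genes held 6.86% and the 100 most abundant 21.1% of gene counts. Each of the rechecked fold changes was also taken from several fits with a library left out. Over all these checks 86 lost the call, 9 gained one and 1175 did neither, so these are not numbers of genes. Ranked by CPM per kilobase, 12 of the 30 genes with most counts stayed among the 30 highest. Genes at 1 CPM or more numbered 9443 to 9465 with each library left out, 10775 at a threshold of 0.1 CPM and 7273 at 10 CPM, and the shares of the first 10 and 100 genes were 9.66 to 9.99% and 23.7 to 23.9%. Leaving out each library in turn gave 2038 to 2436 higher and 1859 to 2092 lower genes against control RNAi, and 1282 to 1853 higher and 1090 to 1610 lower against dpp overexpression; where a group kept 2 libraries its spread was shared with the others. The balance of higher and lower genes turned under several settings: against control RNAi to 2171 higher and 2522 lower with RLE size factors, 2113 and 2534 with DESeq2, 2250 and 2281 without the filter and 2604 and 2892 with only the groups compared, and against dpp overexpression to 1471 and 1531 with only the groups compared. The cause was not tested. With the replicate block the counts were 2367 and 2073 against control RNAi, where same-numbered samples did not deviate together throughout. They were 1791 and 1448 against dpp overexpression, where same-numbered samples did. In list counts the block moved neuropeptides from 6 to 10 and ribosomal proteins from 2 to 1 higher against dpp overexpression, and against control RNAi odorant receptors from 2 to 1 higher and clock genes from 3 to 1. List counts that moved over all settings included ribosomal proteins (20 to 52 lower against control RNAi, 26 to 53 lower against dpp overexpression) and, against dpp overexpression, odorant receptors (3 to 15 higher), neurons (1 to 9), neuropeptides (6 to 13), CheA and CheB (10 to 18), olfactory and taste genes (12 to 23) and phototransduction (1 to 11), while sarcomere genes stayed at 27 to 29 higher against control RNAi and antimicrobial peptides at 19 lower against dpp overexpression. Genes under 1 CPM rest on few counts, and differences among them were often not detectable at this depth.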

Other observations

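Clock genes, which were not described above, held 0.231 ± 0.0114% of gene counts in the control libraries, and all 12 listed reached 1 CPM in each. tim, a core repressor of the clock, had 561, 611 and 464 CPM, and Pdp1, a clock transcription factor, had 441, 450 and 415 CPM. Library 3 was the lowest for both, and a single dpp overexpression library, replicate 3, had 120 CPM of tim against 450 and 504 CPM in the other replicates. Of 12 clock genes 7 were lower in control than in control RNAi and 3 higher, beside 20.9% lower and 24.3% higher over all genes. Over all settings 1 to 3 were higher and 6 to 9 lower. Only 1 was higher with RLE size factors, DESeq2, no filter, only the groups compared or the replicate block. The same held without control replicate 2, control RNAi replicate 2 or control RNAi replicate 3. In control RNAi Pdp1 had 914, 965 and 1019 CPM (log2 fold change -1.25 ± 0.07, adjusted p = 8.69e-09, edgeR). Collection times are not given in the sources used here.

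Of 8 listed trehalose and glycogen genes, Glyp was the highest, with 23.7% of the list's counts. Treh, which splits the blood sugar trehalose, had 557, 532 and 545 CPM, and Tps1, which makes it, had 498, 484 and 447 CPM. Tps1 was lower in control than in control RNAi, at 682, 715 and 686 CPM (-0.64 ± 0.10, adjusted p = 0.000109), and than with dpp overexpression, at 1141, 1092 and 804 CPM (-1.09 ± 0.10, adjusted p = 7.44e-07). Small RNA genes were hardly detected, with 5 of 282 small nucleolar RNA symbols, 8 of 239 microRNA symbols and 0 of 297 transfer RNA symbols at 1 CPM or more in all 3 control libraries.

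CalpB, a calpain protease gene, was among the genes with the smallest spread in control, with a CV of 0.175% around a mean of 125 CPM. The same gene had 51.8, 49.9 and 53.8 CPM in control RNAi (1.17 ± 0.05, adjusted p = 1.76e-10) and 92.6, 97.1 and 88.2 CPM with dpp overexpression (0.43 ± 0.05, adjusted p = 3.6e-06).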
